A study of Homo sapiens with 6 samples.

Results

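The 46 genes described here code for chaperones of the cytosol and the mitochondrial matrix, for their co-chaperones and for the heat shock factors HSF1 and HSF2. They were taken by symbol from 26870 genes, each represented by its transcript entry on a primary chromosome with the highest mean signal over the 3 deposited tables. Reads were found for all 46, and 45, 44 and 44 of them carried an adjusted p-value for mock against untransfected, sample against untransfected and sample against mock cells. Chaperones bind unfolded or partly folded proteins. HSP70 proteins take hold of exposed stretches of a chain in a cycle of ATP use that J proteins start and exchange factors end, HSP90 with its co-chaperones matures kinases and steroid receptors, and the ring-shaped TRiC encloses actin, tubulin and other chains. Heat and other insults to protein folding release HSF1, which binds heat shock elements in the promoters of many of these genes, while dividing cells such as tumour cells make large amounts of several chaperones without heat.

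RNA sequencing was done on U2OS 2-6-3, a human osteosarcoma cell line that carries a chromosomal array of tet operators with a reporter gene. The 6 libraries form 3 groups of 2. Untransfected cells received no plasmid. Mock cells were transiently transfected with TetR-RFP and YFP, a red fluorescent tet repressor and a yellow fluorescent protein. Sample cells were transiently transfected with CIBN-TetR, mCherry-MCP and PHR-YFP-VP16. PHR and CIBN bind each other in blue light, and VP16 is a viral transcription activator. All 3 groups grew in low-glucose medium with doxycycline-free serum and were lit with white light overnight. Both transfections used Roche Xtreme gene, and the labels list no cells given the reagent without plasmid, so reagent, plasmid DNA and encoded proteins cannot be told apart. The share of cells that took up the plasmids is not given in the sources used here, and in bulk RNA a change in fewer cells and a smaller change in each cell cannot be told apart. The labels do not say that the libraries of a group came from separate cultures, so the p-values speak only of how these samples vary, and that spread may be technical.

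The libraries held between 44594507 and 54177551 reads, except the shallower sample library with 9579278. Within each group the deeper library is called a and the shallower b, since their replicate numbers could not be recovered. The sample libraries also differed more from each other than those of the other groups did. Over genes averaging 50 or more normalized reads the SD of log2 (b/a) was 0.407 in the sample pair, against 0.176 in the untransfected and 0.209 in the mock pair. Over the 44 chaperone genes with such a mean it was 0.327, against 0.061 and 0.071. Over all genes averaging 1000 or more it was 0.252, against 0.099 and 0.125. For several members where this changes a call or moves a sample value, limma values without a sample library are given. They are not given for every such member. Without sample library a and without b, the limma value in sample against untransfected cells was 0.87 and 0.51 for FKBP5. It was -0.06 and 0.21 for HSPA13, and 0.14 and 0.25 for CCT7. A fit without 1 library leaves 1 library in that group, whose spread is then assumed to be that of the other groups. The adjusted p-values and calls of such fits rest on that assumption. Of 9 osteoblast lineage markers, SPARC and COL1A1 were abundant, RUNX2, ALPL and SPP1 were present, COL1A2 and BGLAP were low, SP7 had 1 read in all and IBSP had 0 in every library. RUNX2 (-2.49 and -1.76) and SPARC (-0.60 and -0.60) were called lower in mock and sample against untransfected cells in the authors' deposited tables. ALPL was called higher in both comparisons (3.62 and 3.05) in the authors' deposited tables. In mock cells only, COL1A1 was called lower (-0.51) and SPP1 higher (0.57) in the authors' deposited table. Among blood cell markers, CD3E had 0 reads in every library, and PTPRC, CD14 and HBA1 had group means of at most 11.5 normalized reads. HBB stood at 1.95 and 4.28 normalized reads without transfection, at 11.3 and 3.71 in the mock pair and at 103 and 61.8 in the sample pair, and was called higher in sample cells against both untransfected (3.14, adjusted p = 2.22e-10) and mock cells (0.38, adjusted p = 0.0191) in the authors' deposited tables; its part in the chaperone results was not tested. Of 5 epithelial markers, KRT8 and KRT18 were abundant, EPCAM (group means 182, 65.7 and 58.9) and CDH1 were low, and KRT19 was near 0. KRT18 was called higher (0.90 and 0.84) and EPCAM lower (-1.34 and -1.44) in mock and sample against untransfected cells in the authors' deposited tables.

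Most of the chaperone genes were higher in both transfected groups than in untransfected cells. Normalized read counts here are reads divided by each library's median-of-ratios size factor, and a gene is called at an adjusted p under 0.05 in the authors' deposited DESeq2 tables. In mock against untransfected cells 39 of 45 tested members were called, 34 higher and 5 lower. The background was high, since 50.9% of the genes tested were called (27.5% higher, 23.3% lower). Among abundant genes, those averaging 1000 or more normalized reads, where most of these chaperones lie, 71.2% were called, 51.6% higher and 19.5% lower. Limma on the library counts called 38 of 44 members, beside 59.0% of genes. Both mock libraries lay above both untransfected libraries for 35 of 44 members and below for 5, beside 42.3% and 40.2% of genes. In sample against untransfected cells 35 of 44 members were called, 33 higher and 2 lower, against 37.3% of the genes tested (20.2% higher, 17.1% lower) and 51.9% of the abundant ones (37.0% higher, 14.9% lower). Limma again called 38 of 44 members, beside 50.6% of genes. Both sample libraries lay above both untransfected libraries for 36 of 44 members and below for 5, beside 37.6% and 36.8% of genes. The members' median log2 fold change in the authors' deposited tables was 0.52 in mock and 0.45 in sample cells, beside 0.00 and 0.00 over the genes tested and 0.21 and 0.16 over the abundant ones. Both comparisons use the same untransfected libraries, so they are not independent, and 32 members were called higher in both. The share of all genes called higher in both is not given here, so the 32 cannot be read as an excess. Scaling by library totals in place of size factors moved the median of all genes to -0.13 in mock and -0.12 in sample cells, and the share of calls that were higher from 50.4% to 38.8% and from 50.5% to 38.6% in limma. The members' median stayed above 0 at 0.37 and 0.34, with 30 higher and 6 lower, and 32 higher and 4 lower.

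The 46 genes together took up a larger part of the transcriptome after transfection. Counting 1 entry per gene, their share of reads was 1.46% and 1.41% without transfection, 1.96% and 1.97% with the mock plasmids, and 1.91% and 1.97% with the sample plasmids. No library of the transfected groups came near the untransfected range. HSPA8 and HSP90AB1 alone held 0.378% and 0.368%, then 0.588% and 0.611%, then 0.573% and 0.639%. The other 44 genes also held a larger share, from 1.08% and 1.05% to 1.37% and 1.36% (mock) or 1.34% and 1.33% (sample). The 14 listed chaperones of the endoplasmic reticulum, which fold secreted proteins, held a smaller share, from 0.512% and 0.497% to 0.465% and 0.441%, and to 0.460% and 0.446%.

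**Figure D1:**
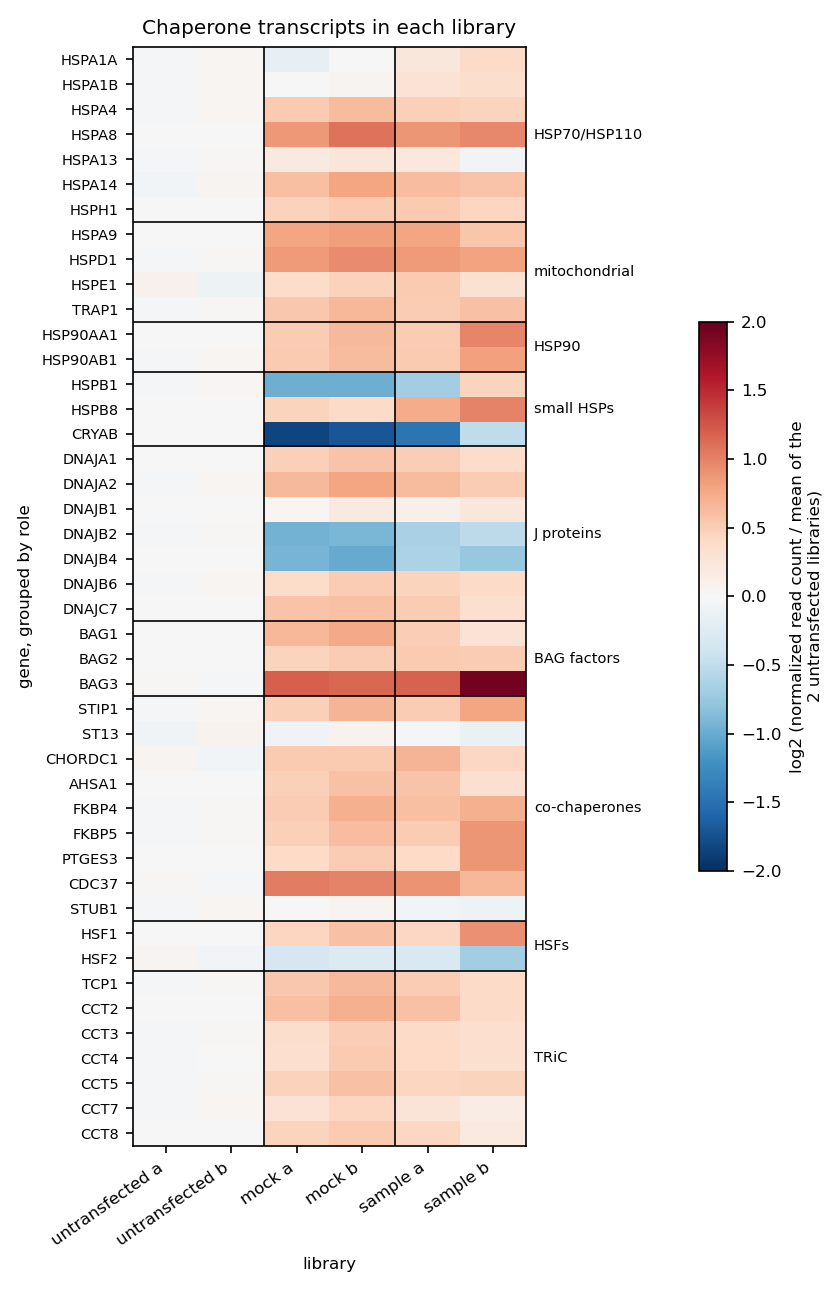
Level of 44 chaperone genes (rows, grouped by role) in each of the 6 libraries (columns), as log2 of the normalized read count over the mean of the 2 untransfected libraries. HSPA2 and HSPA4L, with few reads, are left out; most rows are red in all 4 transfected libraries, while HSPB1, CRYAB, DNAJB2, DNAJB4 and HSF2 are blue in both mock libraries and sample library b stands apart for HSPB1, CRYAB and BAG3.

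Heat shock elements were looked for in the promoters, because several of these genes are textbook targets of HSF1. RefSeq promoter windows (GRCh38.p14) run from 250 bases before to 50 bases after a gene's start, 300 in all, and 40 of the 46 genes have one. The motif searched has 3 units: GAA, any 2 bases, TTC, any 2 bases and GAA, or TTC, any 2 bases, GAA, any 2 bases and TTC. The latter is the reverse complement of the former, so both strands were covered. It was found in 6 of the 40 members (15%) and in 137 of 27305 promoters in all (0.502%). Among the members on a list of textbook HSF1 targets 5 of 17 windows held it, and among the others 1 of 23. That list was drawn up from textbook heat shock factor binding in promoters, so this contrast is no independent check of it. The shorter motif of 2 units (GAA, any 2 bases, TTC, or TTC, any 2 bases, GAA), which lies inside the longer one, was in 37.5% of member windows and 13.8% of all windows. The stretches with the longer motif are shown for 5 genes, upstream of the RefSeq start of the window and on the gene's own strand, 5′ to 3′, with the motif in capitals and lower case flanks. In DNAJA1 the match lay past the start and is not printed. Overlapping matches run together in CHORDC1 and HSPD1, and HSPA8 has matches at 2 places. The deposited entries of HSPA8, HSP90AA1 and CHORDC1 begin further upstream than the start of the window, so the HSP90AA1 and CHORDC1 stretches and the HSPA8 stretch nearer the start lie inside the gene's own entry. The HSPD1 stretch lies inside the deposited entry of HSPE1, the gene on the other side of a shared start region: the entries of HSPD1 (chr2:197486584-197499916) and HSPE1 (chr2:197499997-197503463) are 80 bases apart.
HSPA8, chr11:123062342-123062378, minus strand: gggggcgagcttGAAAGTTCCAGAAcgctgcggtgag
HSPA8, chr11:123062167-123062203, minus strand: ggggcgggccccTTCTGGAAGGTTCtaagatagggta
HSP90AA1, chr14:102087108-102087144, minus strand: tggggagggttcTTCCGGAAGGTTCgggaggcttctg
HSPD1, chr2:197500062-197500090, minus strand: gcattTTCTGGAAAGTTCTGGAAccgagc
CHORDC1, chr11:90223075-90223121, minus strand: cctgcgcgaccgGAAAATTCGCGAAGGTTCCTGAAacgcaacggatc
DNAJB6, chr7:157336861-157336897, plus strand: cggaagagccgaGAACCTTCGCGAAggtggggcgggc
All 6 genes with the motif were called higher in both comparisons with untransfected cells. Of the members with a window and no such motif, 25 of 33 tested were called higher and 4 lower in mock cells, and 24 of 32 higher and 2 lower in sample cells. A match is a run of letters and not a shown binding site. Only exact matches were counted, so the absence of one says nothing of HSF1 binding in this window or elsewhere. The list of HSF1 targets as a whole had 12 higher and 3 lower of 18 tested in mock and 13 higher and 1 lower of 18 in sample cells. Members outside it had 22 higher and 2 lower of 27, and 20 higher and 1 lower of 26. Among all genes tested 27.5% were called higher and 23.3% lower in mock cells, and 20.2% and 17.1% in sample cells. Among the abundant genes the shares were 51.6% and 19.5%, and 37.0% and 14.9%. Calls of the genes outside these lists whose windows hold the motif were not counted.

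Most cytosolic HSP70 and HSP110 genes rose in both groups, while the stress-inducible pair HSPA1A and HSPA1B was not called in mock cells. HSPA8, the constitutive HSP70 (HSC70) and per kilobase of transcript the most abundant member in every group, stood at 55208 and 56077 normalized reads in untransfected libraries a and b, at 101605 and 118191 in mock libraries, and at 102453 and 107946 in sample libraries. All 4 transfected libraries lay far above both untransfected ones, and mock and sample overlapped. Group means were 1.98-fold and 1.89-fold the untransfected mean. HSPA14, an HSP70 that works at the ribosome, stood at 1702 and 1830.2 without transfection, at 2687 and 3045 in the mock pair and at 2714 and 2623 in the sample pair. Its groups were apart in the same way, with log2 fold changes of 0.71 (SE 0.09, adjusted p = 4.36e-14) in mock and 0.59 (SE 0.12, adjusted p = 4.96e-06) in sample cells in the authors' deposited tables. HSPA4 and HSPH1, large HSP110 proteins that act as exchange factors for HSP70, rose by 0.59 and 0.51 in mock and by 0.46 and 0.47 in sample cells in the authors' deposited tables. HSPA13, a microsomal HSP70 relative, was called in mock cells alone, at 0.23 (adjusted p = 0.00258), and stood at 0.09 (adjusted p = 0.621) in sample cells in the authors' deposited tables. The mock call was lost in limma, and the difference between the comparisons was not tested.

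HSPA1A and HSPA1B code for the classical heat-induced HSP70 and are near-identical copies on chromosome 6, so reads may be split between them in a way that the sources used here do not give. HSPA1A stood at 1537 and 1623 normalized reads without transfection, at 1415 and 1591 in the mock pair and at 1857 and 2051 in the sample pair. HSPA1B stood at 1505 and 1604, at 1555 and 1616, and at 1898 and 1993. For both copies the mock libraries overlapped the untransfected ones and both sample libraries lay above all others. In mock cells neither was called, with values of -0.05 and 0.05 for the log2 fold change in the authors' deposited table. With library totals as the scaling HSPA1A was called lower in mock cells by limma, at -0.22 (adjusted p = 0.0449). In sample cells HSPA1B was called higher at 0.31 (SE 0.12, adjusted p = 0.0319), and HSPA1A, at 0.29 (SE 0.13), missed the threshold with an adjusted p of 0.0528 in the authors' deposited table. In limma HSPA1A passed as well (adjusted p = 0.0382), while leaving out untransfected library a or scaling by library totals ended the call of HSPA1B. DNAJB1, the J protein induced together with HSP70 by heat, was not called in either comparison, at 0.13 (adjusted p = 0.161) and 0.16 (adjusted p = 0.245) in the authors' deposited tables. HSPA2, an HSP70 of germ cells, had between 0 and 9.39 normalized reads. HSPA4L, another HSP110 relative, had 0 in 5 libraries and 8.24 in sample library b, from 2 reads.

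All 4 mitochondrial members were called higher in both comparisons. The share called higher was 27.5% (mock) and 20.2% (sample) of all genes tested, and 51.6% and 37.0% of the abundant ones. HSPD1 codes for HSP60, which with its lid HSPE1 forms the folding chamber of the matrix. Its libraries stood at 10463 and 10734 normalized reads without transfection, at 19074 and 20414 in the mock pair and at 19041 and 18426 in the sample pair. HSPA9, the matrix HSP70 that also pulls proteins through the import channel, stood at 7861 and 7721, at 13530 and 13910, and at 13488 and 11463. TRAP1, the HSP90 of mitochondria, stood at 3181 and 3320, at 4740 and 5172, and at 4635 and 4883. For all 3 genes the transfected libraries lay above the untransfected ones without overlap. Among genes averaging 10 or more normalized reads, 42.3% did so in the mock pair and 37.6% in the sample pair. The log2 fold changes of HSPA9 were 0.83 (SE 0.06, adjusted p = 7.29e-37) and 0.67 (SE 0.11, adjusted p = 3.96e-08), and those of TRAP1 were 0.62 and 0.54 in the authors' deposited tables. HSPE1 rose by 0.42 in both transfected groups in the authors' deposited tables, against 0.91 and 0.81 for its partner HSPD1 across the shared start region. In limma the sample call of HSPE1 was lost without sample library a (0.29, adjusted p = 0.0936) and without untransfected library b, and its mock call without untransfected library b and with library totals.

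The cytosolic HSP90 pair rose in both groups. HSP90AB1, the constitutive form, stood at 38126 and 39894 normalized reads without transfection, at 55970 and 60816 in the mock pair and at 56274 and 69064 in the sample pair. HSP90AA1, the inducible form, stood at 13084 and 13293, at 18737 and 20584, and at 18852 and 25846. Sample library b was the highest of all 6 for both genes, and sample library a fell within the mock range. In the authors' deposited tables HSP90AB1 rose by 0.60 in mock (SE 0.07, adjusted p = 7.31e-18) and 0.67 in sample cells (SE 0.12, adjusted p = 1.15e-07), and HSP90AA1 by 0.59 (SE 0.07) and 0.74 (SE 0.14). In limma the sample value of HSP90AA1 was 0.96 without sample library a and 0.52 without b, and that of HSP90AB1 was 0.81 and 0.53, all called. Per kilobase of transcript in untransfected cells HSP90AB1 ranked second with 14754 ± 473 normalized reads (SD, n = 2), behind HSPA8 with 22591 ± 250, and its mean was several times that of HSP90AA1 with 3757 ± 42.0.

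**Figure D2:**
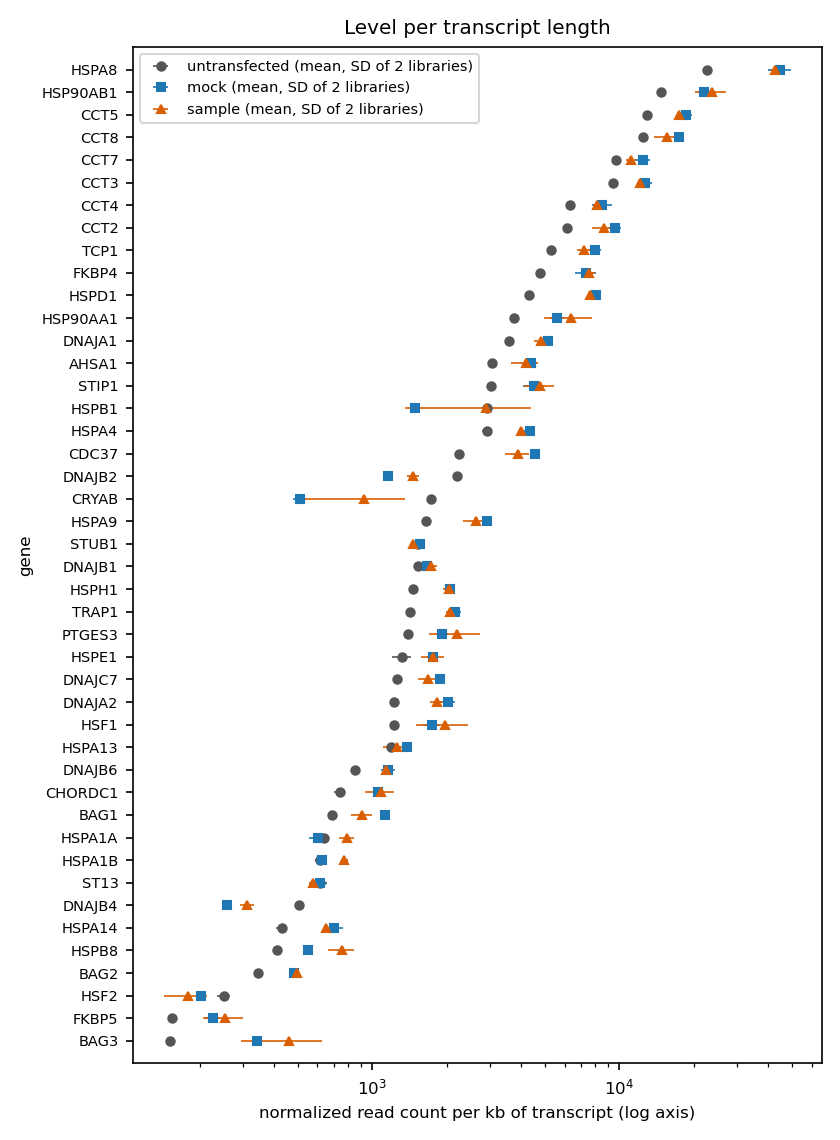
Mean normalized read count per kilobase of transcript (log axis) for 44 chaperone genes, ordered by the untransfected level, with bars for the SD of 2 libraries in each group. HSPA8 leads in all 3 groups, BAG3 is lowest in untransfected cells at 151 ± 4 and FKBP5 next at 155 ± 4, and the widest bars are those of HSPB1, CRYAB and BAG3 in sample cells.

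Small heat shock proteins, which hold unfolding proteins without using ATP, did not move as 1 group. CRYAB, alpha B crystallin, stood at 1782 and 1748 normalized reads without transfection, at 494 and 541 in the mock pair and at 638 and 1248 in the sample pair. HSPB1, or HSP27, stood at 2578 and 2715, at 1350.1 and 1348, and at 1641 and 3603. HSPB8, which works with BAG3 in the removal of damaged proteins, stood at 882 and 890.2, at 1205 and 1157, and at 1478 and 1762. Both mock libraries were tightly together and below the untransfected ones for CRYAB and HSPB1, and above them for HSPB8. The sample libraries were close to mock in library a and far above it in library b for CRYAB and HSPB1. In mock cells CRYAB fell by 1.74 (SE 0.10) and HSPB1 fell by 0.95 (SE 0.08), and HSPB8 rose by 0.43 (SE 0.10, adjusted p = 5.72e-05) in the authors' deposited table. With library totals that call of HSPB8 was lost in limma (0.28, adjusted p = 0.057).

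In sample cells the size of the CRYAB difference and the direction of the HSPB1 difference turned on the library used. CRYAB was not called in the authors' deposited table, at -0.76 (SE 0.38, adjusted p = 0.108), but was called lower by limma at -1.22 (adjusted p = 0.000806). With sample library a left out the limma value was -0.51, and with b left out it was -1.46. Both sample libraries lay below both untransfected ones. HSPB1 stood at -0.01 (SE 0.42, adjusted p = 0.983) in the authors' deposited table. In limma it was higher than in untransfected cells by 0.43 without sample library a and lower by a log2 value of -0.69 without sample library b. Each of these fits holds 1 sample library. Its direction in sample cells is therefore not determined by these libraries, whereas HSPB8 rose by 0.84 (SE 0.14, adjusted p = 6.35e-08) in the authors' deposited table with both sample libraries above all others. HSPB2, another small heat shock gene, starts next to CRYAB, with 709 bases between their entries (chr11:111908620-111912026 and chr11:111912736-111914093 in the deposited tables, hg38). HSPB2 stood at 377 and 389 normalized reads without transfection, at 51.1 and 51.0 in the mock pair and at 94.7 and 103 in the sample pair. Unlike CRYAB it was alike in both sample libraries, and it was called lower in both comparisons, at -2.78 and -1.84 in the authors' deposited tables.

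**Figure D3:**
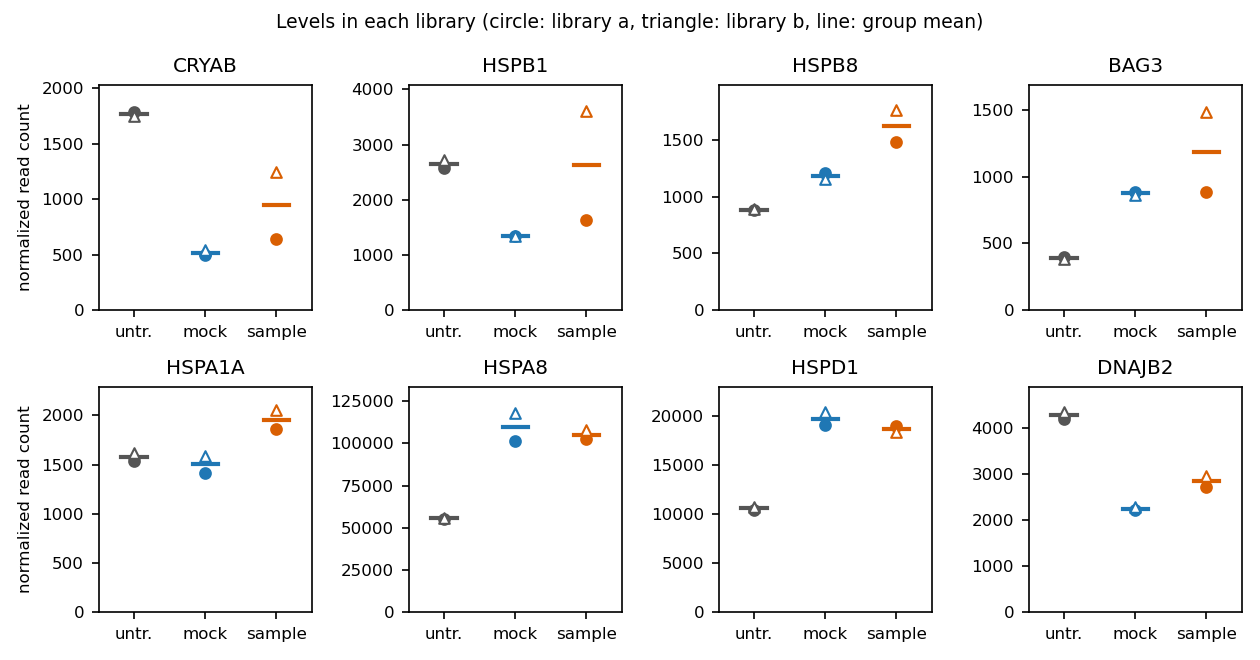
Normalized read count (linear axis from 0) of 8 chaperone genes in each library, with circles for library a, triangles for library b and lines for group means. The sample libraries are widely apart for CRYAB, HSPB1 and BAG3, at 638 and 1248, 1641 and 3603, and 883 and 1482, while HSPA8, HSPD1 and DNAJB2 show clearly separated untransfected and transfected groups.

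J proteins start the ATP cycle of HSP70 and choose its clients, and they moved both ways. DNAJA2, a general cytosolic J protein, stood at 3730.1 and 3942 normalized reads without transfection, at 5981 and 6637 in the mock pair and at 5963 and 5448 in the sample pair. DNAJB2, which passes clients of HSP70 on toward the proteasome, stood at 4212 and 4354, at 2234 and 2281, and at 2735 and 2969. DNAJB4, a close relative of DNAJB1, stood at 1496 and 1514, at 794 and 748, and at 976 and 889. DNAJA2 was higher and DNAJB2 and DNAJB4 lower in every transfected library than in every untransfected one, and for DNAJB2 and DNAJB4 both sample libraries lay between the mock and the untransfected levels. In the authors' deposited tables DNAJA2 rose by 0.73 (SE 0.08, adjusted p = 1.14e-19) and 0.57 (SE 0.11, adjusted p = 1.59e-06). DNAJB2 fell by 0.90 (SE 0.08, adjusted p = 9.01e-32) in mock and by 0.59 (SE 0.11, adjusted p = 7.63e-07) in sample cells, in the authors' deposited tables. DNAJB4 fell by 0.94 (SE 0.10, adjusted p = 1.85e-20) and 0.67 (SE 0.14, adjusted p = 9.35e-06) in the same order in the authors' deposited tables. DNAJA1, DNAJB6 and DNAJC7 were called higher in both comparisons, between 0.41 and 0.59 in the authors' deposited tables.

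The exchange factors of the BAG family, which release clients from HSP70, were all called higher, as were 27.5% (mock) and 20.2% (sample) of all genes tested. Of the abundant genes 51.6% and 37.0% were. BAG3, the stress-inducible member that directs HSP70 clients to autophagy, stood at 397 and 382 normalized reads without transfection, at 889 and 862 in the mock pair and at 883 and 1482 in the sample pair. Every transfected library held over double the untransfected level, and sample library b was highest while a matched the mock libraries. BAG3 had the largest called rise among the 46 genes, at 1.17 (SE 0.12, adjusted p = 1.62e-21) in mock and 1.50 (SE 0.22, adjusted p = 2.51e-10) in sample cells in the authors' deposited tables. In limma the sample value was 1.92 without sample library a and 1.18 without b, both called. BAG1 rose by 0.72 and 0.40, and BAG2 by 0.50 and 0.51 in the authors' deposited tables. The sample call of BAG1 was lost in limma without sample library a (0.28, adjusted p = 0.118, against 0.43 with both libraries).

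Among co-chaperones of HSP90 and HSP70, 7 of 9 were called higher in both comparisons and none lower. Over all genes tested 27.5% were called higher in mock and 20.2% in sample cells, and over the abundant ones 51.6% and 37.0%. CDC37, which brings kinases to HSP90, stood at 3687 and 3564 normalized reads without transfection, at 7374 and 7213 in the mock pair and at 6742 and 5756 in the sample pair. FKBP4 and FKBP5 are immunophilins of steroid receptor complexes. FKBP4 stood at 17489 and 18183, at 25491 and 29216, and at 27000 and 29259, while FKBP5 stood at 582 and 604, at 823 and 912, and at 840.2 and 1091. STIP1, which bridges HSP70 and HSP90, stood at 8098 and 8466, at 11568 and 13252, and at 11791 and 14362. CHORDC1, a partner of HSP90, stood at 2028 and 1887, at 2803 and 2801, and at 3142 and 2594. For these 5 genes no transfected library overlapped an untransfected one, and for CDC37 both mock libraries lay above both sample libraries. Among genes averaging 10 or more normalized reads, 42.3% had both mock libraries above both untransfected ones. For the sample libraries this share was 37.6%. CDC37 rose by 1.02 (SE 0.07, adjusted p = 5.29e-48) and 0.78 (SE 0.12, adjusted p = 6.78e-10) in the authors' deposited tables. The other log2 fold changes in the authors' deposited tables were 0.63 and 0.65 for FKBP4, 0.56 and 0.66 for FKBP5, 0.60 and 0.65 for STIP1, and 0.53 and 0.55 for CHORDC1. AHSA1, which speeds the ATPase of HSP90, rose by 0.55 and 0.45, and PTGES3, the p23 subunit of the HSP90 complex, rose by 0.47 and 0.64, in the authors' deposited tables. The mock call of PTGES3 was lost in limma without untransfected library a, untransfected library b or mock library b (adjusted p = 0.058, 0.059 and 0.0808) and with library totals (adjusted p = 0.0518). Its sample value in limma was 0.87 without sample library a and 0.41 without b, both called. ST13, a cofactor of HSP70, and STUB1, a ubiquitin ligase for chaperone clients, were not called in either comparison, with log2 fold changes between -0.08 and 0.04 in the authors' deposited tables.

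Of the heat shock factors, HSF1 was called higher in both groups and HSF2 lower in mock cells. HSF1 stood at 2631 and 2623 normalized reads without transfection, at 3533 and 3931 in the mock pair and at 3511 and 4953 in the sample pair, and rose by 0.52 (SE 0.08, adjusted p = 9.88e-10) and 0.66 (SE 0.16, adjusted p = 0.000152) in the authors' deposited tables. All transfected libraries lay above the untransfected ones, with sample library b highest. HSF2, which pairs with HSF1 and acts in development, stood at 689 and 634, at 526 and 547, and at 538 and 408. It fell by 0.28 (SE 0.12, adjusted p = 0.0442) in mock cells, and at -0.44 (SE 0.19, adjusted p = 0.0619) it missed the threshold in sample cells in the authors' deposited tables. The mock call of HSF2 was lost with no filter on low values and in limma whenever 1 of the 4 untransfected and mock libraries was left out. Limma called HSF2 lower in sample cells at -0.41 (adjusted p = 0.0245), at -0.71 (adjusted p = 0.0106) without sample library a and at -0.29 (adjusted p = 0.0378) without b. The mock call of HSF1 was lost in limma without mock library b (0.41, adjusted p = 0.0701), and its sample value was 0.90 without sample library a and 0.42 without b, both called. HSF1 protein activity is set after translation and was not measured.

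The TRiC subunits TCP1, CCT2, CCT3, CCT4, CCT5, CCT7 and CCT8 were all called higher in mock cells, with log2 fold changes from 0.37 for CCT7 to 0.67 for CCT2 in the authors' deposited table. In sample cells 6 were called, and the values ran from 0.20 for CCT7 (adjusted p = 0.0985), the 1 not called, to 0.49 for CCT2 in the authors' deposited table. The sample call of CCT8 (0.31, adjusted p = 0.0151 in the authors' deposited table) was lost in limma without untransfected library a (adjusted p = 0.0825), without untransfected library b (adjusted p = 0.0724) and without sample library a (0.18, adjusted p = 0.122). For all 7 subunits both libraries of each transfected group lay above both untransfected libraries. Taken by group, this held in mock and sample cells for 42.3% and 37.6% of genes averaging 10 or more normalized reads. Of the 5519 abundant genes it held for 3277 and 2966, and 51.6% and 37.0% of them were called higher. Per kilobase in untransfected cells the 7 subunits took ranks 3 to 9 among the 46 genes, from 12959 ± 250 normalized reads for CCT5 and 12507 ± 108 for CCT8 down to 5275 ± 88.4 for TCP1 (SD, n = 2). CCT5 and CCT8 differed by more than these SDs, and CCT7 at 9692 ± 391 and CCT3 at 9458 ± 248 did not. Each level was divided by 1 annotated GENCODE transcript length per gene, and the SDs leave out the uncertainty of that length. It was 1234 bases for CCT7 and from 1858 to 2520 for the other subunits. Before this division the untransfected mean of CCT7 was 11960 normalized reads, below TCP1 at 13183.

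**Figure D4:**
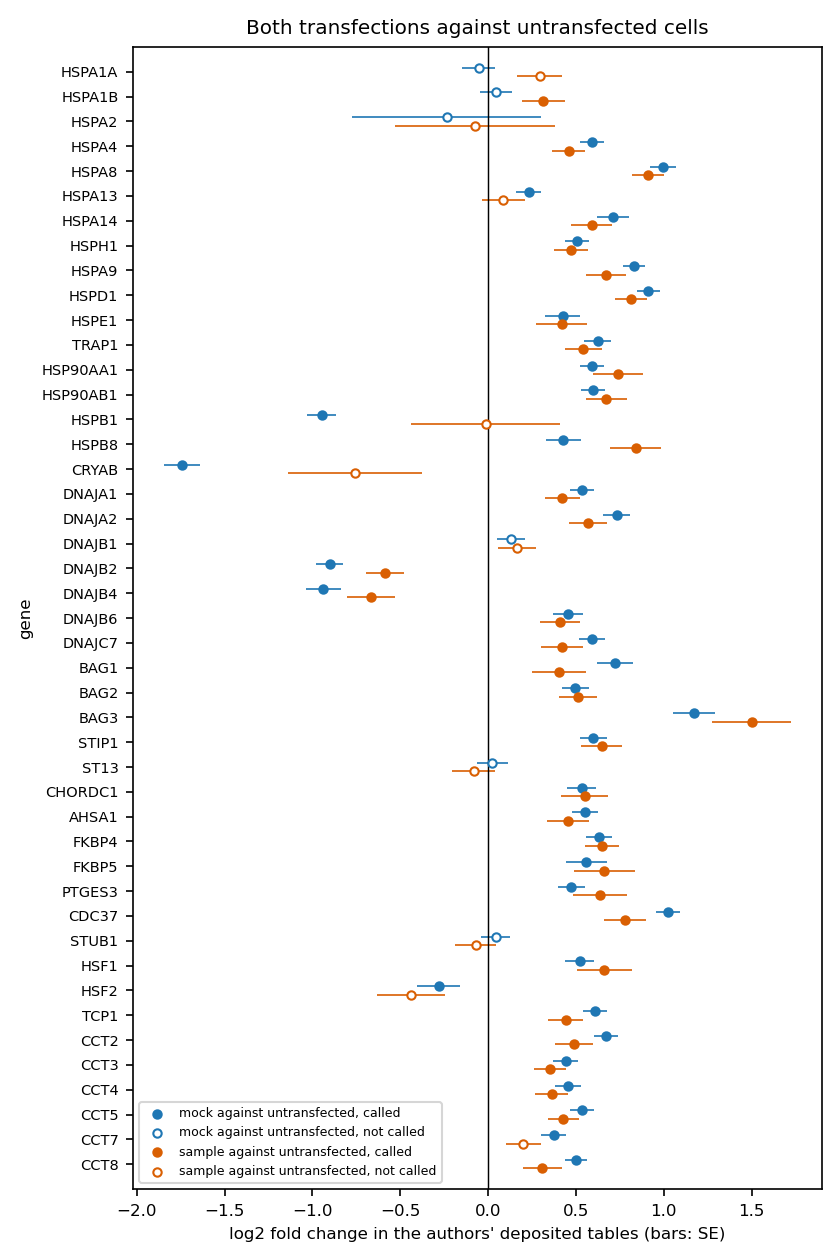
Log2 fold changes of 45 chaperone genes in the authors' deposited tables (points, with bars for the SE) for mock (blue) and sample (orange) against untransfected cells, filled where called. Most filled points lie between 0.3 and 1.0 on the right, BAG3 reaches 1.17 and 1.50, and CRYAB, HSPB1, DNAJB2, DNAJB4 and HSF2 lie on the left in mock cells.

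Between the 2 transfected groups no chaperone gene was called. Of 44 tested members 0 passed in the authors' deposited DESeq2 table, where 0.0654% of the genes tested did (0.00654% higher, 0.0589% lower). Of the 46 members with a p-value there, 5 had an unadjusted p under 0.05, against 1.44% of all genes with one. These were HSPA1A, HSPA1B, HSPB8, CRYAB and DNAJB2, all higher in sample cells. Limma called 0 of 44 members and 0 of 14892 genes. It gave 9 members an unadjusted p under 0.05. The share of all genes under that limma threshold is not given here, so the 9 cannot be read as an excess. Both sample libraries lay above both mock libraries for 7 members and below them for 13 of the 44 with a mean of at least 10 normalized reads, beside 15.2% and 19.1% of all such genes. The 3 small heat shock genes were all among the 7, together with HSPA1A, HSPA1B, DNAJB2 and DNAJB4, and 5 of the 7 TRiC subunits were among the 13. The deposited fold changes of this comparison are strongly shrunk toward 0: CRYAB stood at 0.41 (SE 0.12, adjusted p = 0.651) in the authors' deposited table and at 0.57 in limma.

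The absence of calls between sample and mock cells depended on sample library a. When it was left out, so that sample cells were represented by library b alone and its spread was assumed to be that of the other groups, limma called 10 members, 9 higher and 1 lower, against 5.65% of genes (4.78% higher, 0.868% lower). HSPB1 was then higher by 1.42 (adjusted p = 4.39e-06), CRYAB by 1.28 (adjusted p = 0.000106) and BAG3 by 0.76 (adjusted p = 0.00225), and CDC37 was lower. HSPA1A, HSP90AA1, HSPB8, DNAJB2, PTGES3 and HSF1 were the other higher members. Without sample library b limma called 0. Library b had the fewest reads of all 6, and the part that depth or another trait of this library has in these values was not tested.

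Genes that work with these chaperones were examined on 8 further lists. Of 57 tested genes on the 7 lists outside the endoplasmic reticulum, 32 were called higher and 7 lower in mock cells, and of 54 tested in sample cells 24 were called higher and 5 lower. These shares, 68.4% and 53.7%, were above those of all genes tested (50.9% and 37.3%) and close to those of the abundant genes (71.2% and 51.9%). Exchange factors had 5 of 6 higher in both comparisons. GRPEL1, the exchange factor of HSPA9 in mitochondria, stood at 794 and 829 normalized reads without transfection, at 2247 and 2336 in the mock pair and at 2024 and 2059 in the sample pair. Its transfected libraries were all far above the untransfected ones, and it rose by 1.51 (SE 0.09) and 1.31 (SE 0.13) in the authors' deposited tables, beside at most 0.91 and 0.81 among the 4 mitochondrial members. GRPEL2, its relative, rose by 0.60 and 0.50, and DNAJA3 and DNAJC11, J proteins of mitochondria, rose by 1.00 and 0.82, and by 0.82 and 0.64, in the authors' deposited tables. DNAJC2, the J protein partner of HSPA14 at the ribosome, rose by 1.11 and 0.81 in the authors' deposited tables. Mitochondrial proteases and unfoldases had 5 of 8 higher in mock and 3 of 8 in sample cells, with none lower, and the 37.5% called in sample cells was near the 37.3% of all genes tested.

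Other HSP90 co-chaperones had 9 higher and 2 lower of 13 in mock cells and 8 higher and 2 lower in sample cells. Of all genes tested, 27.5% were called higher and 23.3% lower in mock cells, and 20.2% and 17.1% in sample cells. Of the abundant ones these shares were 51.6% and 19.5%, and 37.0% and 14.9%. TOMM34, which handles precursors bound for mitochondria with HSP70 and HSP90, stood at 2999 and 3127 normalized reads without transfection, at 7087 and 7922 in the mock pair and at 6391 and 7292 in the sample pair. It rose by 1.30 and 1.14, and TTC4, NUDC, RUVBL1, PPID and the HSP70 exchange factor HSPBP1 rose by between 0.55 and 1.11 in the authors' deposited tables. PFDN2, a subunit of prefoldin that hands actin and tubulin to TRiC, stood at 824 and 830.3, at 2449 and 2527, and at 2202 and 1631. It rose by 1.60 and 1.19 in the authors' deposited tables, while the other 5 prefoldin subunits stood between -0.12 and 0.35 and CCT6A, a further TRiC subunit, rose by 0.54 and 0.40. DNAJC15, a J protein of the mitochondrial inner membrane, was called lower at -0.64 and -0.74, and DNAJA4 higher at 0.78 and 0.91, in the authors' deposited tables. HSPA6, an HSP70 made almost only under stress, stood at 13.0 and 8.55, at 56.0 and 50.1, and at 115 and 111. It was low throughout but apart in all 3 groups, and rose by 1.89 (SE 0.41, adjusted p = 1.53e-05) and 2.68 (SE 0.40, adjusted p = 4.72e-10) in the authors' deposited tables.

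Chaperones of the endoplasmic reticulum differed from the cytosolic and mitochondrial ones in their counts, though no test of the difference between the lists was made. In mock cells 3 of 14 were called higher and 3 lower, with a median of 0.12, and in sample cells 3 were called higher and 1 lower, with a median of 0.04 in the authors' deposited tables. In all 42.9% and 28.6% of them were called, below the 50.9% and 37.3% of genes tested and the 71.2% and 51.9% of abundant genes. HSPA5, the HSP70 of that compartment, stood at 0.16 in mock (not called) and rose by 0.39 in sample cells, and HSP90B1, its HSP90, was called in neither comparison, at -0.13 and -0.28, in the authors' deposited tables. DNAJB9 (0.64 and 0.47) and DNAJB11 (0.42 and 0.28) were called higher in both comparisons there. PDIA4 was called lower in both, at -0.37 and -0.42 in the authors' deposited tables.

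**Figure D5:**
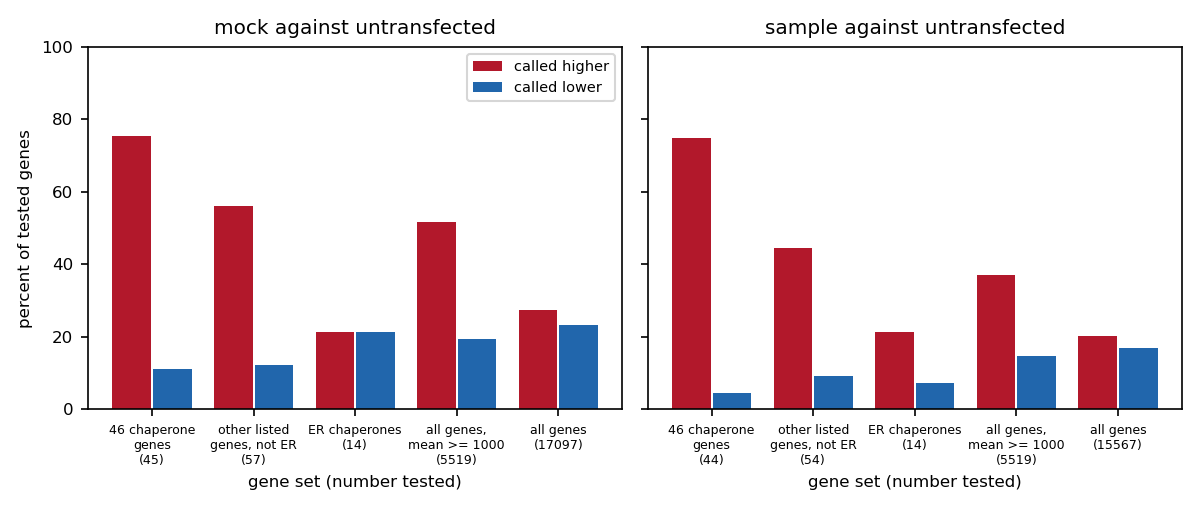
Percent of tested genes called higher (red) and lower (blue) in mock (left) and sample (right) against untransfected cells for the 46 chaperone genes, the other listed genes outside the endoplasmic reticulum (ER), the ER chaperones, all genes with a mean of at least 1000 normalized reads, and all genes; the number tested is under each pair of bars. The chaperone bars stand for 34 higher and 5 lower of 45 and for 33 higher and 2 lower of 44, and the ER chaperones for 3 and 3, and 3 and 1, of 14.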

How the data were processed

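Total RNA of 6 libraries of U2OS 2-6-3 cells, grouped by the transfection in the labels, was made into directional libraries, per the labels' protocols. The submitters' processing notes name Bowtie, STAR, DESeq2 and the build hg38. Not given in the sources used here are the counting, the annotation and the tool versions. The authors' 3 deposited DESeq2 tables list 40029 transcript entries. Per the file headers these hold a mean signal (the mean of normalized read counts over 4 libraries), a log2 fold change with its standard error, a Wald score, and a p-value and adjusted p-value. The values show that the deposited log2 fold changes are shrunk toward 0, most between sample and mock cells. Starts in the tables count from 0 and are given here from 1.

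The members and gene lists were chosen with earlier results of these data known. Accessions were matched to symbols for 39745 entries (99.3%), with RefSeq and GENCODE 29 tables. Calls are the authors' own, at an adjusted p under 0.05. Whole counts per library were solved from the 3 mean signals for 30527 of 30527 entries with reads, within a relative tolerance of 1e-14, and for 29940 of 29940 simulated entries. These counts gave the library values and limma-voom (limma 3.58.1, R 4.3.3; mean of at least 10, median-of-ratios sizes, Benjamini-Hochberg adjustment), the alternative test. Tested on simulated data with a dispersion of 0.01, it recovered 99%, 100% and 100% of genes raised 2-fold, and 97%, 93% and 95% of those set to 0.5, in mock against untransfected (14801 genes), sample against untransfected (14779) and sample against mock cells (14803). The real sample pair varied more than that. All 46 members could be named; library values are given for those called in both comparisons with untransfected cells at a log2 fold change of 0.5 or more, and HSPA1A, HSPA1B, HSPB1, HSPB8, CRYAB and HSF2 were added after their values were seen. Of the other lists, genes meeting the same criterion were named, and CCT6A, HSPA5, HSP90B1, DNAJB9, DNAJB11 and PDIA4 were added. Promoter sequences are RefSeq's. A listed marker is not reported here. Python 3.11.15, numpy 2.4.6, pandas 2.3.3 and matplotlib 3.10.9 were used.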

Additional observations from a re-analysis of the deposited data

How the results depend on the processing

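The deposited adjusted p, the filter, the test, the scaling, the entry per gene and the libraries kept were varied. In mock against untransfected cells the count of called members was 29 to 39 under the alternatives run, against 39. In sample against untransfected cells it was 31 to 41, against 35, except that it came to 20 (18 higher, 2 lower) where a log2 fold change of at least 0.5 was required as well. Leaving out 1 library at a time in limma gave 35 to 39, 34 to 41 and, between sample and mock cells, 0 to 10, the last without sample library a; every other alternative gave 0 there. HSPB1 in sample against untransfected cells reversed to 0.433 without sample library a and stood at -0.69 without b. Calls that moved most often were those of HSPA13, HSF2, HSPE1 and PTGES3 in mock and of HSPA1A, CRYAB and HSF2 in sample cells, and those of BAG1, CCT8 and HSPE1 in sample cells were lost without sample library a; the cause was not tested. No paired analysis was possible because the counts solved from the tables carry no replicate numbers. The shallowest library held 9579278 reads, and genes with few reads (HSPA2, HSPA4L) could not be compared. Genes with near-identical copies, HSPA1A and HSPA1B among them, may share reads.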
